A study of Homo sapiens with 2 samples.

Results

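The 10 genes described here encode enzymes that make cysteine from methionine sulfur and that build, use, recycle and break down glutathione. They are CTH and CBS for cysteine synthesis, GCLC, GCLM and GSS for glutathione synthesis, CHAC1, CHAC2 and GGCT for breakdown, and GSR and GPX4 for reduction and use. They were chosen by function from 28130 gene symbols, with earlier results of the same pair of libraries in view, CTH being among the lowest ratios. The ratios are therefore a description, and no test was made on them. Counts were scaled to a common library size and are given as CPM. Every one of the 10 reached a mean of 1 CPM over both libraries, CHAC1 with 1.28 CPM and through the control library alone.

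In transsulfuration, CBS joins homocysteine to serine to form cystathionine, and CTH cleaves cystathionine to release cysteine. Glutamate-cysteine ligase, made of the catalytic subunit GCLC and the modifier subunit GCLM, joins cysteine to glutamate, and GSS adds glycine to complete glutathione, the main small thiol of the cell. GPX4 uses glutathione to reduce lipid peroxides in membranes, GSR returns oxidised glutathione to its reduced form with NADPH, and CHAC1 and CHAC2 cleave glutathione in the cytosol.

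One library was made from HEK293T cells given a mimetic of tRF-3004b, one of the short fragments cut from transfer RNAs, and the other from HEK293T cells given the non-targeting RNA GL2. HEK293T is a human embryonic kidney cell line that carries the SV40 large T antigen. Both RNAs were synthetic, carried a 5′ phosphate and were reverse transfected with Lipofectamine RNAiMax (500 nM). Poly-A RNA came from cells harvested 120 h later. The sequences below show which letters were introduced into the cells, with bases 2 to 8, the seed through which a small RNA can pair with a target, in capitals.

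tRF-3004b: uCAAAUCUcgguggaaccucca

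GL2 control: cGUACGCGgaauacuucgauu

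There was 1 library per group, so no difference has a replicate check or a p-value, the comparison is between these libraries rather than the conditions, and each 95% interval covers counting error only. The tRF-3004b library held 1809193 estimated counts and the control library 19609933, a 10.8-fold difference in depth. Among 13752 genes averaging 1 CPM or more, the median gene had 34 counts in the tRF-3004b library and 433 in the control library. Apart from CHAC1, the 10 genes had 33 to 321 counts in the tRF-3004b library and 837 to 2747 in the control library. Of the markers set for HEK293T, VIM, NEFL, NEFM, INA and PAX2 had counts in both libraries. VIM had 979 CPM in the tRF-3004b library and 1447 CPM in the control library (log2 ratio -0.56), and NEFL was also lower (-0.89). INA was higher, with 9.57 CPM in the tRF-3004b library and 4.06 CPM in the control library (1.22), the interval of NEFM held 0 (ratio 0.33), and PAX2 was low, with 2 counts in the tRF-3004b library and 19 in the control library. Summed markers of other cells were higher in the tRF-3004b library: 117 CPM against 36.2 CPM in the control library for 8 fibroblast genes, 36.6 against 10.5 CPM for 6 epithelial genes, and 29.8 against 3.26 CPM for 5 blood genes. The blood sum rests on 53 counts in the tRF-3004b library and 65 in the control library. Of those averaging 1 CPM or more, the ratio was above 0 for 6 of 7 fibroblast, 4 of 4 epithelial and 5 of 5 blood genes. Some reached that average only through the tRF-3004b library, as HLA-DRA did with 7.88 CPM against 0.251 CPM in the control library. The filter fixes the direction of such genes, so nothing is read from these numbers of genes. Liver, a tissue known for high transsulfuration, was represented by ALB, APOA1, TTR and SERPINA1. They summed to 3 counts (1.69 CPM) in the tRF-3004b library and 2 counts (0.100 CPM) in the control library. The log2 ratio of this sum was also above 0, at 3.27 (interval 0.95 to 7.66), on very few counts. KRT5 and APOA1 were at 0 in both libraries, ALB at 0 in the tRF-3004b library, and TTR and SERPINA1 at 0 in the control library. The part of other cells in the results was not tested.

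CTH and CBS, the paired enzymes of cysteine synthesis, differed between the libraries in opposite directions. CTH (gene 1491, chromosome 1, 70411268 to 70439851, GRCh38) had 33 counts in the tRF-3004b library, 18.6 CPM (interval 12.8 to 26.1), against 2615 counts in the control library, 131 CPM (126 to 136). The tRF-3004b library was 7.03-fold lower, a log2 ratio of -2.81 (interval -3.36 to -2.33), rank 9 from the lowest among the 8711 genes averaging 10 CPM or more. In a bulk library, fewer cells with the transcript and less of it per cell cannot be told apart. CBS (gene 875, chromosome 21, 43053191 to 43076873) had 240 counts in the tRF-3004b library, 135 CPM (119 to 153), against 1315 counts in the control library, 65.9 CPM (62.4 to 69.6). The CBS ratio was 2.05-fold higher, a log2 ratio of 1.03 (interval 0.83 to 1.23). The whole ratio interval lay below 0 for CTH, as for 28.6% of all genes averaging 1 CPM or more, and above 0 for CBS, as for 23.3%.

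The order of the pair was opposite in the libraries. In TPM, which divides counts by transcript length and scales each library to the same total, CTH stood at 16.6 TPM in the tRF-3004b library and 149 TPM in the control library, and CBS at 95.6 TPM in the tRF-3004b library and 59.1 TPM in the control library. The TPM of CTH was 0.174 times that of CBS in the tRF-3004b library (counting interval 0.117 to 0.251) and 2.52 times in the control library (2.35 to 2.69). CBS held 87.9% of the counts of the pair in the tRF-3004b library (exact interval 83.4 to 91.5%) and 33.5% in the control library (32.0 to 34.96%). Summed, the pair had 154 CPM in the tRF-3004b library and 197 CPM in the control library, a log2 ratio of -0.36 (interval -0.54 to -0.18), nearer to 0 than the ratio of either gene. GENCODE 29 annotates a near copy of CBS, CBSL, which holds 55.9% of the 31-base words of the CBS transcripts. No transcript in the tables carried the name CBSL, so the CBS value may include its reads.

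**Figure D1:**
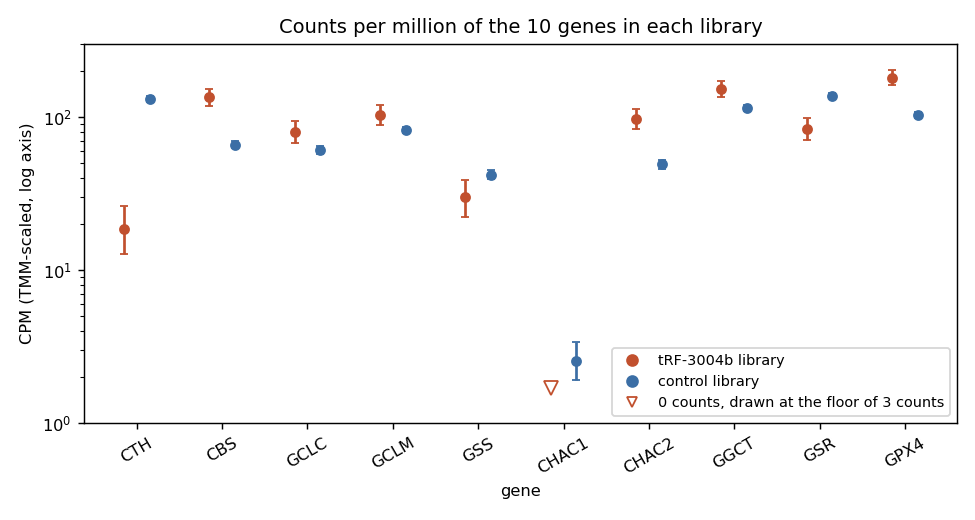
CPM of each of the 10 genes (log axis) in the tRF-3004b library (left point of each pair) and the control library (right point), with exact Poisson 95% intervals for counting error. CTH stands at 18.6 CPM in the tRF-3004b library and 131 CPM in the control library, CBS at 135 CPM in the tRF-3004b library and 65.9 CPM in the control library, and CHAC1, with 0 counts in the tRF-3004b library, is drawn at the floor of 3 counts.

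In glutathione synthesis, both subunits of glutamate-cysteine ligase were slightly higher by scaled counts and GSS was lower. GCLC (gene 2729, chromosome 6, 53497341 to 53545101) had 142 counts in the tRF-3004b library, 79.9 CPM, against 1216 counts in the control library, 61.0 CPM, a log2 ratio of 0.39 (interval 0.13 to 0.64). GCLM (gene 2730, chromosome 1, 93885199 to 93909430) had 184 counts in the tRF-3004b library, 104 CPM, against 1644 counts in the control library, 82.4 CPM. Its log2 ratio was 0.33 (interval 0.10 to 0.55), but with gene TPM and 1 added it was -0.0068, and GCLC was then at 0.023. The median of all genes was -0.38 with gene TPM and -0.11 with scaled counts.

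The subunits kept nearly equal levels. GCLC stood at 38.4 TPM in the tRF-3004b library and 37.8 TPM in the control library, and GCLM at 38.2 TPM in the tRF-3004b library and 38.4 TPM in the control library. The ratio of GCLM to GCLC in TPM was 0.995 in the tRF-3004b library (interval 0.795 to 1.248) and 1.02 in the control library (0.943 to 1.10), and these intervals overlapped. GSS (gene 2937, chromosome 20, 34928432 to 34956027) had 53 counts in the tRF-3004b library, 29.8 CPM (22.3 to 39.0), against 837 counts in the control library, 42.0 CPM (39.2 to 44.9). Its log2 ratio was -0.49 (interval -0.92 to -0.09), which came close to 0 at its upper end. GCLC therefore stood above GSS in the tRF-3004b library, at 1.30 times its TPM (interval 0.945 to 1.82, which holds 1), and below it in the control library, at 0.721 times (0.660 to 0.789). The 3 genes summed to 213 CPM in the tRF-3004b library and 185 CPM in the control library, a log2 ratio of 0.20 (interval 0.05 to 0.36). This turned to -0.28 with TPM, where the median of all genes was -0.38.

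In glutathione breakdown, the paired cytosolic enzymes CHAC1 and CHAC2 stood apart. CHAC1, which is induced by ATF4 in stressed human cells (gene 79094, chromosome 15, 40953471 to 40956512), had 0 counts in the tRF-3004b library and 51 counts in the control library, 2.56 CPM (1.90 to 3.36). With the tRF-3004b library taken at a floor of 3 counts (1.69 CPM) and the control library at its measured level, it was at least 1.51-fold lower. The interval of its log2 ratio, which also holds the counting error of the control library, ended at -0.25 and so allows a smaller difference. CHAC2 (gene 494143, chromosome 2, 53767783 to 53775196) had 173 counts in the tRF-3004b library, 97.4 CPM (83.4 to 113), against 976 counts in the control library, 48.9 CPM (45.9 to 52.1). It was 1.99-fold higher, a log2 ratio of 0.99 (interval 0.75 to 1.23).

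CHAC2 was also the more abundant form: in the control library it stood at 92.2 TPM, 22.5 times the 4.10 TPM of CHAC1 (interval 16.97 to 30.4), and in the tRF-3004b library at 144 TPM with CHAC1 listed at 0. GGCT, which splits gamma-glutamyl amino acids into 5-oxoproline and free amino acids (gene 79017, chromosome 7, 30496621 to 30504829), had 271 counts in the tRF-3004b library, 153 CPM, against 2285 counts in the control library, 115 CPM. Its log2 ratio was 0.41 (interval 0.23 to 0.59), but it was -0.32 over coding transcripts alone and -0.034 relative to genes of like length. Of the 31-base words of GGCT transcripts, 24.0% also occur in the GENCODE 29 gene AC005154.5, a name that no transcript in the tables carried. The 3 breakdown genes summed to 250 CPM in the tRF-3004b library and 166 CPM in the control library, a log2 ratio of 0.59 (interval 0.44 to 0.73).

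GSR and GPX4 also differed in opposite directions. GSR (gene 2936, chromosome 8, 30678066 to 30727846) had 148 counts in the tRF-3004b library, 83.3 CPM (70.4 to 97.9), against 2747 counts in the control library, 138 CPM (133 to 143). It was 1.65-fold lower, a log2 ratio of -0.73 (interval -0.97 to -0.49). GPX4 (gene 2879, chromosome 19, 1103994 to 1106779) had 321 counts in the tRF-3004b library, 181 CPM (161 to 202), against 2054 counts in the control library, 103 CPM (98.6 to 108). It was 1.75-fold higher, a log2 ratio of 0.81 (interval 0.64 to 0.98). Relative to genes of like length, GPX4 was at 0.057 and GSR at -0.64. The TPM of GPX4 was 9.50 times that of GSR in the tRF-3004b library (interval 7.79 to 11.6) and 3.29 times in the control library (3.11 to 3.49), and these intervals did not overlap. The sum of the pair had a log2 ratio of 0.13 (interval -0.0071 to 0.27).

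**Figure D2:**
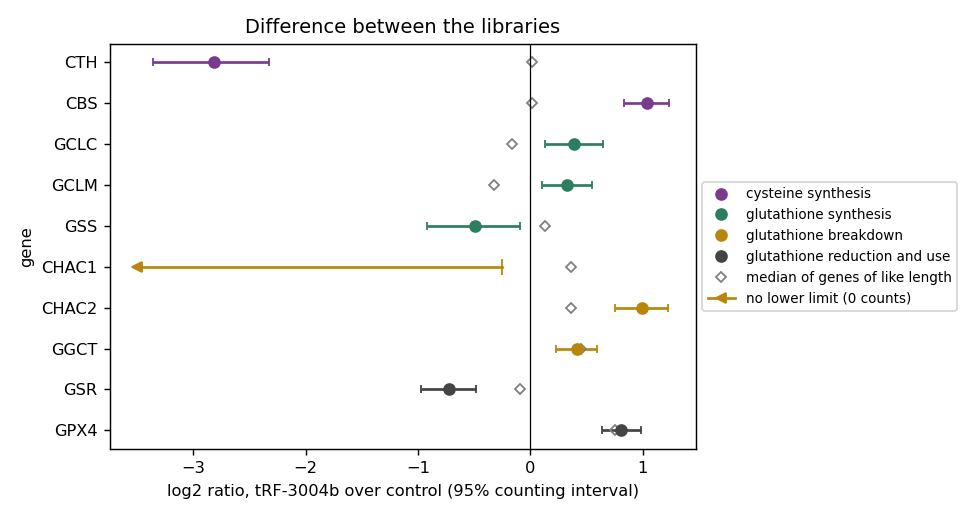
Log2 ratio (tRF-3004b over control) for each gene (points, with 95% intervals for counting error, coloured by step), with the median of all genes of like effective length as open diamonds. CTH at -2.81 and CBS at 1.03 are both far from their diamonds, at 0.013 and 0.012, while GPX4 at 0.81 and GGCT at 0.41 lie at theirs. The arrow of CHAC1 ends at -0.25 with no lower limit. GCLM is above 0 here but at -0.0068 with gene TPM, and GGCT is at -0.32 over coding transcripts alone.

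Set side by side, 4 of the 10 genes had a whole interval below 0 (CTH, GSS, CHAC1 and GSR), as did 28.6% of all genes averaging 1 CPM or more. With upper quartile factors 3 did, GSS then being at -0.36, but no share of all genes was computed with those factors. A whole interval above 0 was found for 6 (23.3% of all genes), among them GCLM and GGCT, whose ratios turned below 0 under the settings named above. By the ratio, 2 were at least 2-fold lower (14.2% of all genes), CTH and CHAC1, and 1 was at least 2-fold higher (12.2% of all genes), CBS. With gene TPM, GSR joined the lower genes at -1.04, but the median of all genes was then -0.38. No share of all genes past 2-fold was computed with gene TPM. CBS was under 2-fold with total counts and, at a log2 ratio of 0.68, with gene TPM. The ratio of CHAC1 rests on the 0.5 counts added. CHAC1 passed the filter through the control library alone. Any gene that passes so, at 0 counts in the tRF-3004b library, falls past 2-fold lower by this ratio. With genes at 0 counts taken at their bound, CTH was the 1 gene at least 2-fold lower, where 13.3% of all genes were. The median log2 ratio of the 10 genes was 0.36, with CHAC1 at its bound or not, and that of all genes was -0.11. The median of the 10 was 0.018 over coding transcripts alone, 0.0115 relative to genes of like length and 0.0081 with gene TPM. Since the genes were proposed with these ratios known, nothing is read from these shares.

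Ratios followed transcript length over all genes: of 20 bins by effective length, the shortest had a median of 0.75 and the longest one of -0.40. Spearman's rho between length and log2 ratio was -0.44 across genes averaging 10 CPM or more, which are not independent replicates and share both libraries. GPX4, the shortest of the 10 at an effective length of 652 bases, lay 0.057 above the median of its bin, and GGCT lay at -0.034. Relative to their bins, CTH was at -2.83, CBS at 1.02, CHAC2 at 0.63, GCLM at 0.65, GCLC at 0.55, GSS at -0.62 and GSR at -0.64. The values of CTH and CBS were thus about as large within genes of like length, and those of GPX4 and GGCT were near 0 there.

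Within the tRF-3004b library, the order of levels in TPM was GPX4 at 484, GGCT at 286, CHAC2 at 144, CBS at 95.6, GSR at 51.0, GCLC at 38.4, GCLM at 38.2, GSS at 29.5 and CTH at 16.6, with CHAC1 listed at 0. Counting intervals overlapped between neighbours from GSR down to CTH. Within the control library the order was GPX4 at 350 TPM, GGCT at 261, CTH at 149, GSR at 106, CHAC2 at 92.2, CBS at 59.1, GSS at 52.4, GCLM at 38.4, GCLC at 37.8 and CHAC1 at 4.10. There the intervals overlapped between CBS and GSS and between GCLM and GCLC. CTH ranked 9 in the tRF-3004b library and 3 in the control library, and no other of the 10 genes moved by more than 3 places.

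**Figure D3:**
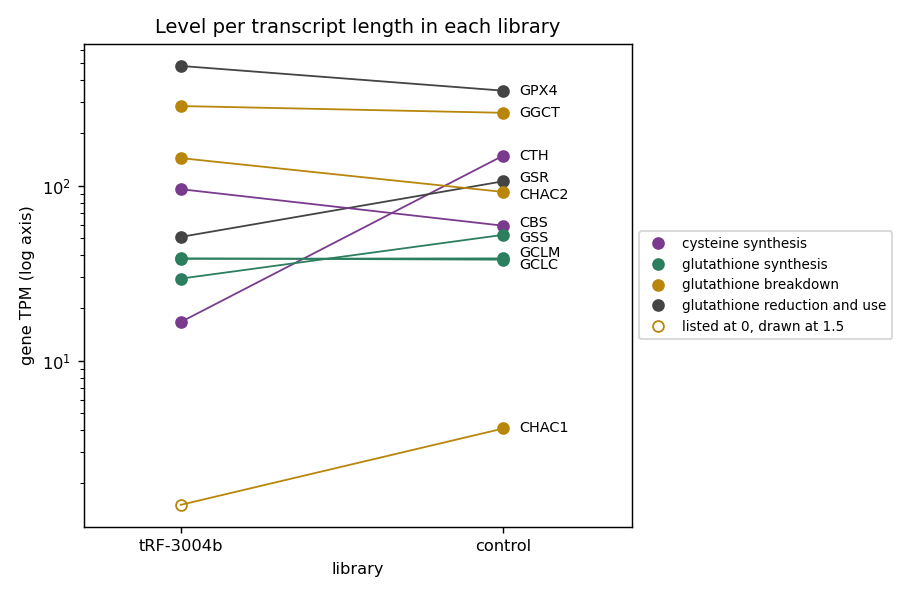
Gene TPM (log axis) of the 10 genes in the tRF-3004b library (left) and the control library (right), joined by lines and coloured by step. The line of CTH, at 16.6 TPM in the tRF-3004b library and 149 TPM in the control library, crosses those of 6 other genes, GCLC and GCLM lie on each other near 38 TPM, and CHAC1, listed at 0 in the tRF-3004b library, is drawn at 1.5.

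The transcripts that carried the counts differed for 3 genes. Of the 9 genes with counts in both libraries, the leading RefSeq transcript differed for CBS, GCLC and GGCT, and over 6049 genes with more than 1 transcript and an average of 10 CPM or more it differed for 25.7%. For CBS, NM_000071 held 95.4% of the counts in the tRF-3004b library and 0.194% in the control library, whereas NM_001178008 held 0.0292% in the tRF-3004b library and 76.9% in the control library. For GCLC, NM_001498 held 89.8% in the tRF-3004b library (exact interval 83.2 to 94.0%) and 35.4% in the control library (32.8 to 38.2%), and NM_001197115 held the rest. kallisto divides reads among transcripts of shared sequence by estimation, so these intervals do not cover the error of the division, and its part in the shares was not tested.

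For GGCT the shift was between coding and non-coding transcripts. The non-coding NR_037669 held 53.1% of the counts in the tRF-3004b library (47.0 to 59.2%) and 21.1% in the control library (19.4 to 22.8%), and the coding NM_024051 held 43.2% in the tRF-3004b library and 71.1% in the control library. CHAC2 and GSR kept their leading transcript, with smaller shifts: NM_001346127 of CHAC2 held 31.7% in the tRF-3004b library and 11.2% in the control library, and NM_001195104 of GSR held 43.6% in the tRF-3004b library and 26.2% in the control library. CTH was read almost wholly as 1 transcript, NM_001902, which had all 33 counts in the tRF-3004b library and 2611 of 2615 in the control library. GCLM, GSS and GPX4 each gave at least 94.3% of their counts to 1 transcript in both libraries.

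**Figure D4:**
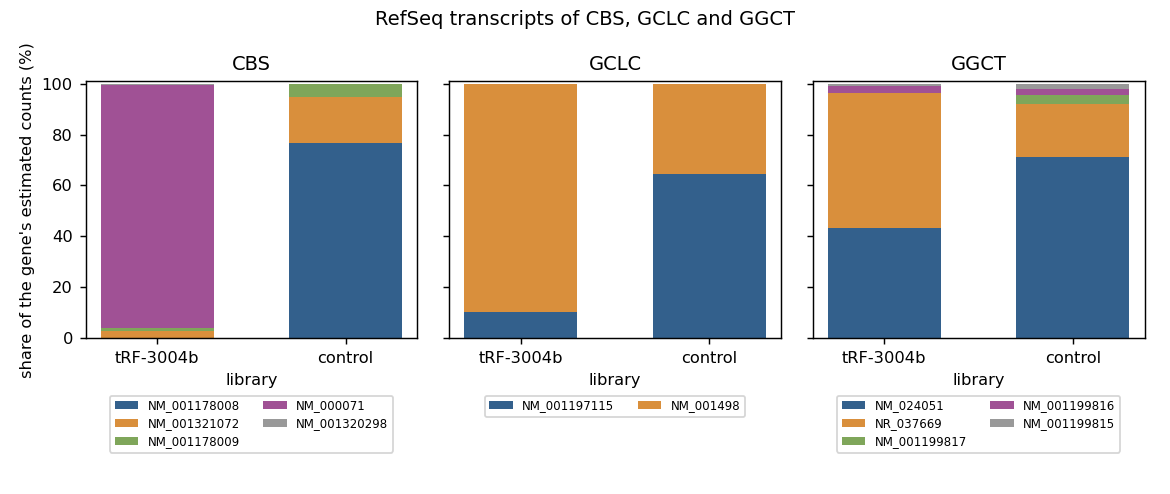
Share of the estimated counts of CBS, GCLC and GGCT (percent, bars stacked to the whole gene) held by each RefSeq transcript in the tRF-3004b library (left bar) and the control library (right bar). The leading transcript differs in each panel, as for CBS, where NM_000071 holds 95.4% in the tRF-3004b library and 0.194% in the control library.

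Since the transfected RNA carries a seed, the 3′ untranslated region of a single transcript of each of the 10 genes was searched. The word sought on the transcript strand was AGATTTG, the complement of bases 2 to 8 of tRF-3004b. It occurred once each in CTH, GGCT and GSR, and in 12.2% of 17932 genes searched. The sites of CTH and GGCT are shown with 10 bases on each side and the complement in capitals (GENCODE 29 on GRCh38). The CTH site starts at base 253 of a 443-base region, at chr1:70439380-70439386 on the plus strand, and the GGCT site at base 306 of 471, at chr7:30496780-30496786 on the minus strand.

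CTH: gaaggaggtgAGATTTGtgctactttg

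GGCT: ggtaaaagatAGATTTGtagctcactt

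In both, the base after the complement is T, and in GSR it is A. Among genes whose region was within 25% of the same length, 3.92% held the complement for CTH, 4.16% for GGCT and 13.5% for GSR. The log2 ratios of the 3 genes with a site were -2.81 for CTH, -0.73 for GSR and 0.41 for GGCT. Those of the 6 genes without one and with counts in both libraries ran from -0.49 for GSS to 1.03 for CBS, and CHAC1, with no site, was at 0 counts in the tRF-3004b library. GGCT was at -0.32 over coding transcripts alone. Its site was found in the pair of the coding NM_024051, and the non-coding NR_037669 was not searched. Whether the sites bear on the ratios was not tested. A match of letters is not a binding site.

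CTH and CHAC1 are both known in human or mouse cells as genes induced through ATF4, and their promoter windows are shown. The windows are from RefSeq on GRCh38.p14, 250 bases before to 50 after the start, plus strand. Both genes had the lowest levels of the 10 in the tRF-3004b library. In the control library CHAC1 was also the lowest, whereas CTH ranked 3. CTH lies at chr1:70411018-70411317 and CHAC1 at chr15:40953221-40953520. Capitals mark a match to any of the 3 motifs searched on both strands: TGATGNAAN, the composite element bound by CEBP and ATF factors, TTGCATCA, a strict form of the same element on the other strand that overlaps it, and TGACNNNGC, the core of the antioxidant response element bound by NRF2.

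CTH: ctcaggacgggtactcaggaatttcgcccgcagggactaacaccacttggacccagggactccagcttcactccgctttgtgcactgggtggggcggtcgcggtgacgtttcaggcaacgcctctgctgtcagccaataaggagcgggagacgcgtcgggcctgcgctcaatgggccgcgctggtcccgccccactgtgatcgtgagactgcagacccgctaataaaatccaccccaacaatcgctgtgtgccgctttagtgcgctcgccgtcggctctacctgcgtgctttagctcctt

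CHAC1: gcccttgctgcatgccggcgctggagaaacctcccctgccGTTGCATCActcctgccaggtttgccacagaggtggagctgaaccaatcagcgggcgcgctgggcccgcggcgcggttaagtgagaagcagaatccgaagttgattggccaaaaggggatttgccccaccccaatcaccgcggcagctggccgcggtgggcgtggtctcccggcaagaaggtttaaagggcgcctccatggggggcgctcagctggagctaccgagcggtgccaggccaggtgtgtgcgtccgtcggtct

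The CHAC1 window held TGATGNAAN on the minus strand, as GTTGCATCA, from 210 to 202 bases before the start, and TTGCATCA within it. The CTH window held none of the 3, which says only that these letters are not in this window. Of 35116 promoter windows, 3.61% held TGATGNAAN, 0.866% TTGCATCA and 13.3% TGACNNNGC. Windows were found for 7 of the 10 genes, 12 windows in all, with none matched for GSS, GGCT or GSR. TGACNNNGC occurred in a window of GCLM, 34 bases before the start, and in 1 of 3 windows of CBS, and it was not found in the window of GCLC. ATF4 had 463 counts in the tRF-3004b library and 7595 in the control library, a log2 ratio of -0.55 (interval -0.69 to -0.41). NFE2L2, which encodes NRF2, had 140 counts in the tRF-3004b library and 1286 in the control library, a log2 ratio of 0.29 (interval 0.03 to 0.54). Relative to genes of like length, ATF4 was at -0.91 and NFE2L2 at 0.24.

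The genes around the pathway were described with 8 lists set by function. A gene counts as measured at an average of 1 CPM, and the lowest and highest gene named for each list are those among genes averaging 10 CPM or more. Percentages beside the counts are shares of all genes averaging 1 CPM or more. Beside the supply of cysteine, 7 carriers of cystine and related amino acids were listed and 5 measured, of which 2 were at least 2-fold lower (14.2% of all genes) and none as far above (12.2%), with a median log2 ratio of -0.61, or -0.45 relative to genes of like length. SLC7A11, the cystine importer, had 124 counts in the tRF-3004b library and 6790 in the control library, a log2 ratio of -2.29 (interval -2.55 to -2.03), while its partner chain SLC3A2 was at 0.086. The neutral amino acid carrier SLC1A4 was the lowest of the list at -3.11, on 4 counts in the tRF-3004b library, and SLC1A5 the highest at 0.26. The methionine cycle, which yields homocysteine for CBS, had 10 of 12 genes measured, 2 at least 2-fold higher (12.2% of all genes) and none as far below (14.2%), with a median of 0.092, or 0.14 relative to genes of like length. The 2 past 2-fold, BHMT and BHMT2, each rest on 5 counts in the tRF-3004b library. In the control library BHMT had 11 counts and BHMT2 18, and the interval of BHMT2 held 0. The methionine synthase gene MTR was lowest at -0.65 and MAT2B, a subunit of the enzyme that makes S-adenosylmethionine, highest at 0.46. Of 10 genes of cysteine breakdown and sulfide handling, 9 were measured, 1 at least 2-fold lower (14.2% of all genes) and 1 at least 2-fold higher (12.2%). The lower was CSAD, with 5 counts in the tRF-3004b library and 161 in the control library. The higher was TST, with 12 counts in the tRF-3004b library and 56 in the control library. The list had a median of -0.10, or -0.15 relative to genes of like length, from the thiol dioxygenase gene ADO at -0.75 to MPST at 0.36.

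Enzymes that use glutathione were spread on both sides of 0. Of 6 other peroxidase genes 5 were measured, 2 at least 2-fold higher (12.2% of all genes) and none as far below (14.2%), with a median of 0.38, or 0.22 relative to genes of like length. They ran from GPX8 at -0.75 to GPX1 at 1.23, and GPX1 was at 0.48 relative to genes of like length. The other gene past 2-fold, GPX2, rests on 3 counts in the tRF-3004b library and 7 in the control library. Of 17 transferase genes 13 were measured, 3 at least 2-fold higher (12.2% of all genes) and none as far below (14.2%), with a median of 0.15 that turned to -0.26 relative to genes of like length. They ran from GSTM2 at -0.71 to MGST1, a membrane-bound transferase, at 1.29. The 3 past 2-fold were, relative to genes of like length, at 0.51 for GSTP1, 0.53 for MGST1 and 0.49 for MGST2. The gamma-glutamyl cycle list had 6 of 12 genes measured, 1 at least 2-fold lower (14.2% of all genes) and none as far above (12.2%), and a median of -0.21 that turned to 0.084 relative to genes of like length, from the export pump gene ABCC4 at -0.43 to the dipeptidase gene CNDP2 at 0.60.

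All 15 genes of the thioredoxin and glutaredoxin list were measured. The interval lay above 0 for 12 (23.3% of all genes) and below 0 for 1 (28.6%), 2 ratios were past 2-fold above (12.2%) and 1 past 2-fold below (14.2%), and the median was 0.69. GLRX2, a mitochondrial glutaredoxin, was highest at 1.29 and TXNIP, an inhibitor of thioredoxin, lowest at -1.14. Relative to genes of like length, GLRX2 was at 0.53 and TXNIP at -1.04. Many of these transcripts are short, and the median relative to genes of like length was 0.33. The 10 genes of NADPH supply, the cofactor of GSR, had a median of -0.26, or -0.16 relative to genes of like length, with IDH2 lowest at -1.27, PGD highest at 0.33, 1 at least 2-fold lower (14.2% of all genes) and none as far above (12.2%).

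**Figure D5:**
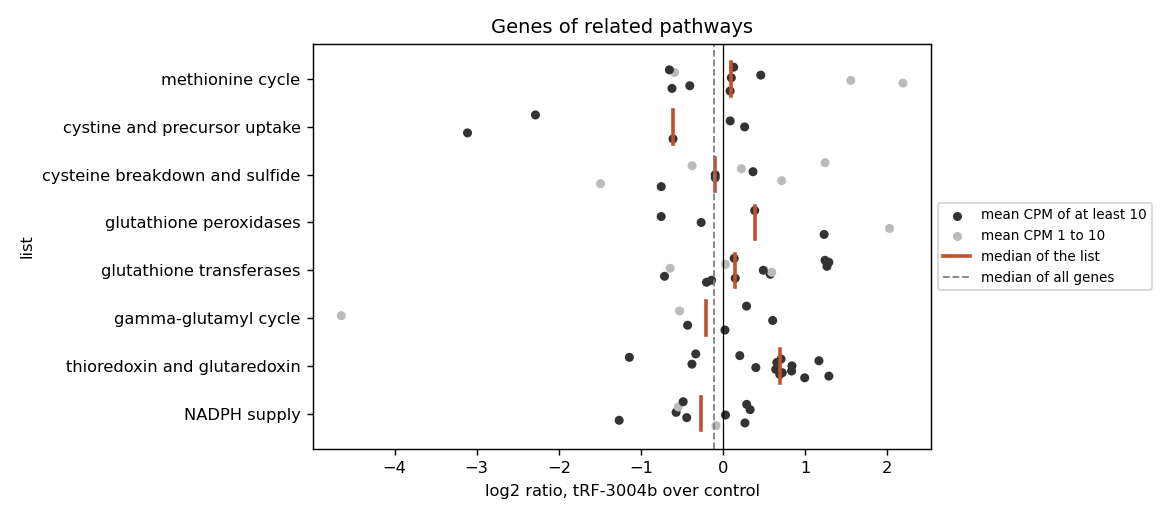
Log2 ratio (tRF-3004b over control) of each measured gene of the 8 related lists (points, dark for genes averaging 10 CPM or more), with each list's median as a bar and the median of all genes as a dashed line at -0.11. The thioredoxin and glutaredoxin list has the highest median, 0.69, and the uptake list the lowest, -0.61. Relative to genes of like length, the medians of the transferase list, 0.15 here, and the gamma-glutamyl list, -0.21 here, turn to -0.26 and 0.084.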

How the data were processed

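Poly-A RNA of 1 tRF-3004b library and 1 control library was sequenced. The authors quantified reads with kallisto 0.46.1 and worked with GRCh38, per the submitters' processing notes. The deposited tables hold, per the file headers, estimated counts, TPM, length and effective length of 70866 RefSeq transcripts. The sources used here give neither the annotation release nor the options of kallisto. Estimated counts and TPM were summed per gene symbol with a RefSeq table (70245 transcripts) and GENCODE 29 (309), counts were rounded, and 312 unnamed transcripts (0.0617% of tRF-3004b and 0.0608% of control counts) were left out. TPM keeps no depth. Scaling used the TMM factors of edgeR 4.0.16 (0.983 for tRF-3004b, 1.02 for control). edgeR's test was not used, as 1 library per group leaves no spread. Log2 ratios have 0.5 counts added at a common library size. Ratio intervals are exact conditional Clopper-Pearson, count and level intervals exact Poisson, and shares exact Clopper-Pearson, all at 95%. The labels describe no molecular identifiers, so copies of a molecule may be counted separately, and intervals and floors reflect counting alone. Computations were tested on simulated counts.

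The members and lists were chosen with earlier results of these data known. One HEK293T marker and the sum that includes it are not reported here. Named genes are the 10 members, ATF4, NFE2L2 and the extremes of each list among genes averaging 10 CPM. SLC7A11 and SLC3A2 were added after their values were seen. So were BHMT, BHMT2, CSAD, TST, GPX2, GSTP1 and MGST2, as genes past 2-fold in their lists. In 3′ untranslated regions the GENCODE transcript paired with the most abundant coding RefSeq transcript that has a pair was searched, or for CHAC1 the one with the longest region. The transcript searched could hold few counts. For GPX4, NM_001039847 held 4.57% in the tRF-3004b library and 1.58% in the control library. For CHAC2, NM_001346127 held 31.7% and 11.2%, and for CBS, NM_001178008 held 0.0292% and 76.9%, in the same order. Regions of other transcripts were not searched. The alternatives tried were upper quartile factors, DESeq2 1.42.0 size factors, total counts, 5 counts added, gene TPM with 1 added, a minimum average of 5 CPM, a minimum of 1 count, removal of the length trend in 20 bins, and coding transcripts only. Python 3.11.15, scipy 1.17.1 and R 4.3.3 were used.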

Additional observations from a re-analysis of the deposited data

How the results depend on the processing

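Results were recomputed under 10 settings. CTH ran from -3.09 to -2.68 and CBS from 0.68 to 1.17. GCLM turned to -0.0068 with gene TPM and 1 added, and GGCT to -0.32 with coding transcripts and -0.034 with the length trend removed; here fewer transcripts or the trend itself make the change, and for TPM the cause was not tested. TPM also moved the median of all genes, to -0.38 from -0.11 with TMM, against 0.03 with upper quartile factors. The summed steps moved with TPM to -0.88 for cysteine synthesis, -0.28 for glutathione synthesis and 0.26 for breakdown, the last also to 0.27 with coding transcripts. The median of the 10 genes, 0.36 with TMM, was 0.49 with upper quartile factors but 0.018 with coding transcripts, 0.0115 with the length trend removed and 0.0081 with TPM. Genes with an interval below 0 numbered 3 with upper quartile factors or a mean CPM of at least 5, and 5 with coding transcripts. Genes at least 2-fold lower numbered 3 with TPM, GSR then being at -1.04, 1 with a mean CPM of at least 5, which drops CHAC1, and 1 with 0 counts taken at the bound, a choice made after seeing the data. Genes at least 2-fold higher numbered 0 with total counts or TPM, and 2 with DESeq2 size factors, upper quartile factors or coding transcripts. For 0 counts taken at the bound, 13.3% of all genes were at least 2-fold lower. Under the other settings here no such share was computed, so nothing is read from these numbers of genes. No replicate could be left out, and CBS was not summed with CBSL, whose name no transcript carried. No paired analysis was possible because each group has 1 library. Depth limits CHAC1 most, with 0 counts in the tRF-3004b library.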

Other observations

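GGACT, a cyclotransferase that releases lysine from gamma-glutamyl-lysine crosslinks, was named after its values were seen. It had 1 count in the tRF-3004b library and 322 counts in the control library, 0.563 CPM against 16.1 CPM, a log2 ratio of -4.65 with a counting interval of -10.15 to -2.35. Its mean CPM was 8.36, and it was not searched for shared sequence. GGCT, the cyclotransferase among the 10 genes, was at 0.41 by gene counts and at -0.32 over coding transcripts. TXN, thioredoxin itself, also named after its values were seen, had 1593 CPM in the tRF-3004b library and 710 CPM in the control library, a log2 ratio of 1.17 (interval 1.11 to 1.22) that was 0.41 above genes of like length.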
